A study of Saccharomyces cerevisiae with 4 samples.

Results

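The 31 genes that encode the subunits of the yeast nuclear RNA polymerases were examined in ribosome-depleted total RNA from Saccharomyces cerevisiae. They were taken by gene name: every measured reading frame whose standard name is RPA, RPB or RPC followed by digits, with RPO21, RPO26, RPO31 and RET1 added. All 31 were found among the 7126 features of the table, 7 for RNA polymerase I (Pol I), 7 for Pol II, 10 for Pol III, 2 for subunits shared by Pol I and Pol III, and 5 for subunits shared by all 3 enzymes. The data come from 4 libraries, 2 from each of a pair of strains, and the question is how the levels of these messenger RNAs differ between cells with and without Dbp2, an RNA helicase of the DEAD-box family. Nothing in the labels says whether replicates came from separate cultures, so p-values measure the spread between these libraries, which may be technical. The dbp2null strain (BTY115) carries a KanMx cassette in place of DBP2, with the further markers ura3Δ0, leu2Δ0, his3Δ0, TRP1, met- and lysΔ. The wild type carries his3Δ1, leu2Δ0, met15Δ0 and ura3Δ0. Both strains are MATa and lack URA3, LEU2 and HIS3 function by label, and cultures were grown in YPD, a rich glucose medium, at 30 °C to an optical density of about 0.4. The genotypes differ at the methionine, lysine and HIS3 markers as well as at DBP2, so DBP2 and strain background cannot be told apart. Levels are FPKM, fragments mapped to a feature scaled to its length and to the size of the library. They describe a gene's share of its library, so that less of one RNA and more of the others cannot be told apart.

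Eukaryotic nuclei divide transcription among these enzymes. Pol I makes the precursor of the large ribosomal RNAs, Pol II makes messenger RNAs and most snoRNAs and snRNAs, and Pol III makes tRNAs, the smallest ribosomal RNA and other short RNAs. In each enzyme the largest and the second largest subunit form the active centre, a stalk of paired subunits protrudes beside it, and small shared subunits hold the core together. The genes for all of them are themselves read by Pol II, and in yeast many belong to the ribosome biogenesis genes that growing cells express at high levels. Their promoters gave the PAC element its name, after polymerases A and C, the older names of Pol I and Pol III.

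The promoters are shown first because the PAC element was unevenly spread over the polymerases. Windows from 250 bases before to 50 bases from the start codon on, 300 bases each, were read from the R64 assembly for all 31 genes and for 6001 nuclear protein-coding genes in all. The core of PAC, GATGAG, was searched on both strands. It was found in 6 of 7 Pol I promoters, in 8 of 10 Pol III promoters and in both promoters of the subunits shared by Pol I and Pol III, in 1 of 7 Pol II promoters and in 0 of 5 promoters of the subunits shared by all 3 enzymes, against 20.4% of all promoters. The single Pol II match, in RPB2, lies inside the reading frame. The longer form GCGATGAG was in 6 of the 31 windows and 3.93% of all. The RRPE element, AAAAATTTT, which often accompanies PAC in ribosome biogenesis genes, was in 6 of 7 Pol I, 2 of 7 Pol II and 5 of 10 Pol III promoters, in 1 of 2 promoters of the subunits of Pol I and Pol III, and in 2 of 5 promoters of the subunits common to all, against 6.98% of all promoters. Both elements occurred together in 12 of the 31, 6 of them Pol I genes, against 3.58% of all promoters. RPA12 was the Pol I gene with neither. The consensus of the factor Abf1 had another distribution, with 0 of 7 Pol I promoters, 2 of 7 Pol II, 3 of 10 Pol III, 2 of 2 of Pol I and Pol III and 4 of 5 of all 3 enzymes, against 14.4% of all promoters. The Abf1 matches of RPB4 and RPO31 lie inside the reading frame. TATAAA was in 15 of 31 windows and 45.2% of all, and the Reb1 core TTACCCG in 4 of 31 and 7.08% of all. A match describes letters in a window and is not evidence of a bound factor.

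The windows of the genes for the largest subunits of Pol I and Pol II and the second largest of Pol I are given below, 5′ to 3′ on the gene's strand, with PAC cores (on the opposite strand read as CTCATC) and RRPE elements in capitals. RPA190 and RPA135 each hold a pair of overlapping PAC cores on the opposite strand, at positions -172 and -167 in RPA190 and -109 and -104 in RPA135, counted from the start codon. RPA135 has a further core at -1, which spans the start codon. RPO21 holds an RRPE element and no PAC core. The windows lie at chrXV:960737-961036 (plus strand), chrXVI:581147-581446 (minus strand) and chrIV:210512-210811 (minus strand).
RPA190: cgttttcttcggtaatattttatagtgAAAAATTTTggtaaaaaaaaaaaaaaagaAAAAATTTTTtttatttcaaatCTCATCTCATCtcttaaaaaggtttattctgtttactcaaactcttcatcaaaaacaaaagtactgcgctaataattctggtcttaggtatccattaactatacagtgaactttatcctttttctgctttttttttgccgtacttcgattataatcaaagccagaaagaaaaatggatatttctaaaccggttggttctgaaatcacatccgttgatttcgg
RPA135: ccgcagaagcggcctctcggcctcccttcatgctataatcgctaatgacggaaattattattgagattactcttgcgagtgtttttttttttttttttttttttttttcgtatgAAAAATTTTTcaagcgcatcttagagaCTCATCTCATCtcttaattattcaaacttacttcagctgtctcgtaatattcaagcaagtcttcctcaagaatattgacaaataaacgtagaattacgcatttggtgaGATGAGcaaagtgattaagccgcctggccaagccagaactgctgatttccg
RPO21: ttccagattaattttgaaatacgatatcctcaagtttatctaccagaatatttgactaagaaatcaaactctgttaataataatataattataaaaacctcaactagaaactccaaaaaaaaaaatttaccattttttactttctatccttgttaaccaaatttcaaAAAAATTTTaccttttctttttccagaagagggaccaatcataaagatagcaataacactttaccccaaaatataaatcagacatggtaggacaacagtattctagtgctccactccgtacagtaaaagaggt

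Shorter stretches, with up to 15 bases on each side of the PAC core in capitals, show the single cores of the other Pol I genes, of the shared Pol I and Pol III genes and of the Pol III genes for the largest, the second largest and the initiation subunits. They allow the letters beside the core to be compared. In RPA49, RPC40 and RPC19 the core follows gc, and RPC31 and RPC82 have the same letters on the opposite strand, which makes the longer form.
RPA43 (chrXV:960344-960379, minus strand): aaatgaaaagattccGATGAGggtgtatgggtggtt
RPA14 (chrIV:769451-769486, plus strand): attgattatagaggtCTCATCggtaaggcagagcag
RPA34 (chrX:140312-140347, plus strand): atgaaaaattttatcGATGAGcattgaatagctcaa
RPA49 (chrXIV:182718-182753, minus strand): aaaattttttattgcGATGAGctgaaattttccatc
RPC40 (chrXVI:746898-746933, minus strand): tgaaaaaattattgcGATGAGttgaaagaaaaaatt
RPC19 (chrXIV:412629-412664, plus strand): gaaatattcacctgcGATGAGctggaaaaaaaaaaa
RPO31 (chrXV:544223-544258, minus strand): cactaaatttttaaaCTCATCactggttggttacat
RET1 (chrXV:733566-733601, minus strand): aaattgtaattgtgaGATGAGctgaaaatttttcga
RPC82 (chrXVI:919143-919178, minus strand): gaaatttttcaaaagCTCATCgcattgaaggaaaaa
RPC31 (chrXIV:348584-348619, minus strand): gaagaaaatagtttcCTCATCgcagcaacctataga
RPC34 (chrXIV:635338-635373, minus strand): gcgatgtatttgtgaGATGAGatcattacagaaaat

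The libraries differed in scale and spread. FPKM summed to 5.01e+07 and 3.37e+06 in dbp2null replicates 1 and 2 and to 5.29e+07 and 3.22e+07 in wild type, while the subunit genes took between 0.426% and 0.525% of the protein-coding sum in each library. Across the 31 genes the log2 values of the wild-type libraries correlated with r = 0.997 and those of the dbp2null libraries with r = 0.94, as a description, since genes are not replicates. DBP2 itself read 2.90 and 1.03 FPKM in dbp2null against 213 and 199 FPKM in wild type (log2 fold change -6.20, limma adjusted p = 0.0225), which is the direction of the labels. LYS2 read 1.63 and 0.679 FPKM against 37.8 and 31.7 FPKM, and MET17, also called MET15, 31.5 and 22.5 FPKM against 0.237 and 0.422 FPKM, the directions of the lysΔ and met15Δ0 markers. Read depth is not known from these values.

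No subunit gene passed the test. Fold changes were taken as the difference of the mean log2(FPKM + 1), dbp2null minus wild type, tested with limma over the 6781 features that averaged 1 FPKM or more. All 31 genes were among them, and 0 of 31 had a Benjamini-Hochberg adjusted p below 0.05, against 1.19% of all features. At an unadjusted limma p below 0.05 there was 1, RPC31, against 37.9% of all features. In 19 of 31 genes both dbp2null values lay below both wild-type values, against 20.7% of all features, and in 1, RET1, both lay above, against 49.8%. The log2 fold change was negative for 29 of 31 genes, against 37.7% of all features. The median of the 31 was -0.59 and that of all tested features 0.28, a distance of -0.87 on the log2 scale. With quantile normalization that distance was 0.00036 and 14 of 31 fold changes were positive. With the protein-coding sums made equal, 24 of 31 fold changes were positive, and the distance to all features, whose median became 1.08, was -0.86. Without dbp2null replicate 1 the test called 18 of 31 genes, all lower (21.2% of all features were called lower in that fit), and without each of the other libraries it called 0.

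In wild type the highest levels belonged to small shared subunits. RPC10 read 2655 and 2368 FPKM in replicates 1 and 2 and RPB10 2282 and 2396 FPKM, and their ranges overlapped. RPB8 came next, followed by RPO26. The lowest 3 were RPO31, RPO21 and RET1, each at least 3450 bases long, and their neighbouring ranges overlapped. RPO31 read 49.97 and 42.9 FPKM, RPO21 46.8 and 39.99 FPKM and RET1 41.8 and 36.1 FPKM. Of the 30 neighbouring pairs in this order, 11 were apart, in that the 2 values of the higher gene exceeded both values of the lower. Log2 length and log2 wild-type level correlated with r = -0.73 across the 31 genes, as a description.

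**Figure D1:**
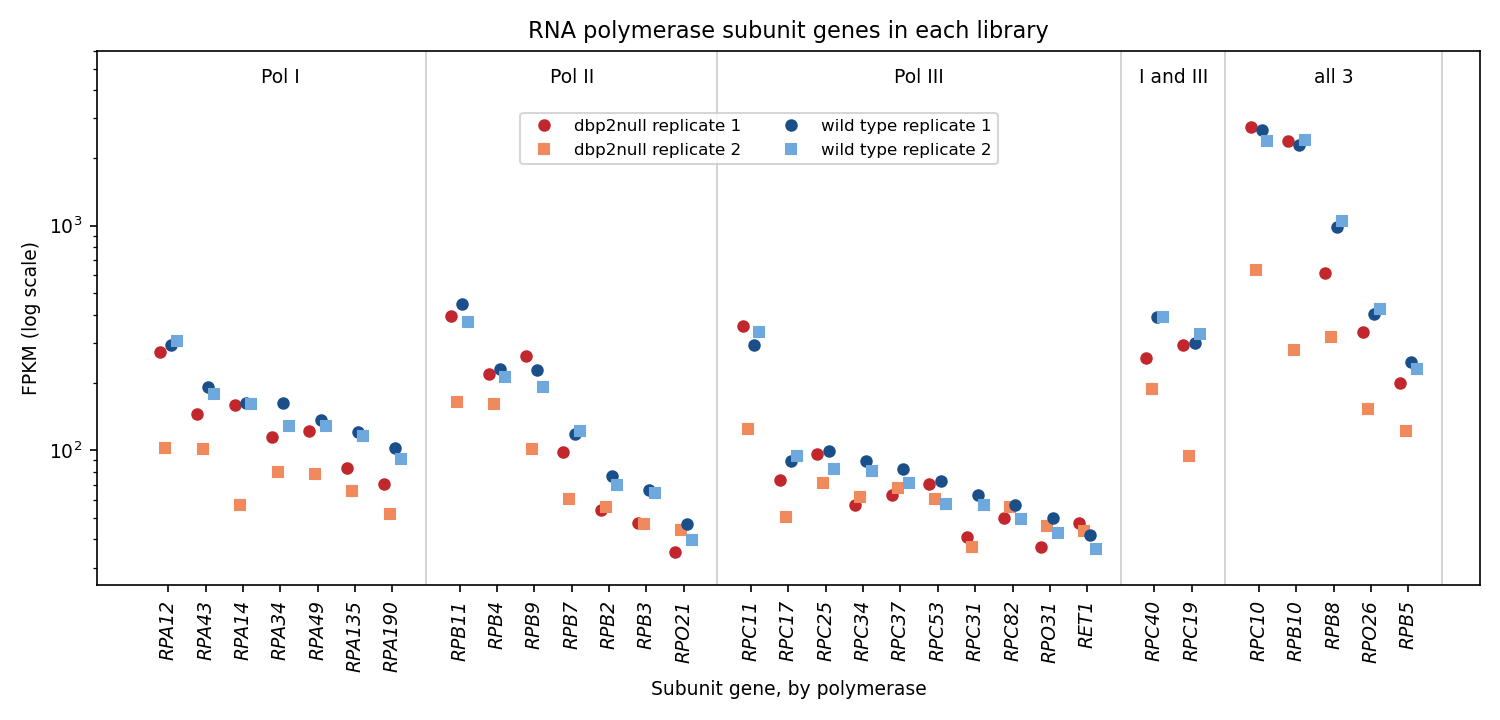
FPKM (log scale) of each subunit gene in the 4 libraries, grouped by polymerase, with one point per library and no error bars. Dbp2null replicate 2 lies lowest for the short, strongly expressed genes, for example RPB10 at 279 FPKM against 2282 and 2396 FPKM in wild type, and the libraries lie close together for the Pol III genes RPC53, RPC82 and RET1.

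In the deposited values all 7 Pol I genes read lower in both dbp2null libraries than in either wild-type library, against 20.7% of all features. The group median turned positive when the protein-coding sums were made equal, which raised the median of all features to 1.08. RPA190, for the largest subunit, read 70.4 and 52.2 FPKM in dbp2null against 102 and 90.97 FPKM in wild type (log2 fold change -0.66, SE 0.27, limma adjusted p = 0.153). RPA135, for the second largest subunit, read 83.6 and 65.9 FPKM in dbp2null against 121 and 116 FPKM in wild type (log2 fold change -0.66, SE 0.27, limma adjusted p = 0.152). The partners of the active centre differed from wild type by nearly the same amount, and in neither did the genotypes overlap. RPA43 and RPA14 encode the stalk, and the former contacts the initiation factor Rrn3. RPA43 read 145 and 101 FPKM in dbp2null against 191 and 177 FPKM in wild type (log2 fold change -0.60), and RPA14 159 and 56.7 FPKM in dbp2null against 161 and 159.9 FPKM in wild type (log2 fold change -0.75), where dbp2null replicate 1 was within 3 FPKM of both wild-type libraries. RPA34 and RPA49 form a pair that resembles the Pol II factor TFIIF. RPA34 read 114 and 79.6 FPKM in dbp2null against 162 and 128 FPKM in wild type, a log2 fold change of -0.59. RPA49 had the smallest difference of the group and read 121 and 78.2 FPKM in dbp2null against 137 and 128 FPKM in wild type (log2 fold change -0.44, SE 0.34, limma adjusted p = 0.386). RPA12, whose product takes part in cleaving the nascent RNA, had the largest and read 274 and 102 FPKM in dbp2null against 294 and 305 FPKM in wild type (log2 fold change -0.83, SE 0.58, limma adjusted p = 0.344). That value rested on replicate 2, since replicate 1 alone differed from the wild-type mean by -0.13 and replicate 2 by -1.54 on the log2 scale. The group median was -0.66, a distance of -0.94 from all features. That distance was -0.25 with quantile normalization. With the protein-coding sums made equal the group median was 0.15, a distance of -0.93 from all features.

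The Pol II genes all had negative fold changes in the deposited values, against 37.7% of all features. Without overlap, 3 of 7 read lower, against 20.7% of all features, and 0 read higher, against 49.8%. RPO21, for the largest subunit with its repeated C-terminal tail (19 exact copies of the consensus heptad in the translated reading frame), read 35.4 and 43.99 FPKM in dbp2null against 46.8 and 39.99 FPKM in wild type (log2 fold change -0.13, SE 0.21, limma adjusted p = 0.672). The genotypes overlapped, with wild-type replicate 1 above both dbp2null values and wild-type replicate 2 between them. RPB2, for the second largest subunit, read 54.1 and 56.1 FPKM in dbp2null against 76.4 and 69.6 FPKM in wild type (log2 fold change -0.40, SE 0.21, limma adjusted p = 0.241), and RPB3, for a subunit of the assembly platform, 47.4 and 46.8 FPKM in dbp2null against 66.8 and 64.2 FPKM in wild type (log2 fold change -0.47). In both genes the dbp2null libraries lay close together and below wild type. RPB11, the partner of Rpb3, had the lowest fold change of the group and read 397 and 163 FPKM in dbp2null against 446 and 372 FPKM in wild type (log2 fold change -0.68, SE 0.59, limma adjusted p = 0.432), with overlapping values. RPB4 and RPB7 encode the stalk. RPB7 read 98.4 and 60.9 FPKM in dbp2null against 118 and 121 FPKM in wild type (log2 fold change -0.62), without overlap, and RPB4 218 and 159.6 FPKM in dbp2null against 229.7 and 211 FPKM in wild type (log2 fold change -0.24), with overlap. RPB9, for a subunit that affects start site choice and fidelity, read 261 and 102 FPKM in dbp2null against 228 and 192 FPKM in wild type, so that the wild-type values lay between the dbp2null values. The group median was -0.40, a distance of -0.68 from all features. That distance was -0.27 with quantile normalization. With the protein-coding sums made equal the group median was 0.41, a distance of -0.67 from all features.

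The Pol III genes spanned both directions. RET1, for the second largest subunit, was the single subunit gene with both dbp2null values above both wild-type values, 47.4 and 43.5 FPKM in dbp2null against 41.8 and 36.1 FPKM in wild type (log2 fold change 0.22, SE 0.19, limma adjusted p = 0.433). RPO31, for the largest subunit, did not share this direction and read 37.1 and 45.9 FPKM in dbp2null against 49.97 and 42.9 FPKM in wild type (log2 fold change -0.16, SE 0.22, limma adjusted p = 0.593), with overlap. RPC82, RPC34 and RPC31 encode the subcomplex needed for initiation, and its members differed. RPC31 read 41.1 and 37.1 FPKM in dbp2null against 63.2 and 57.2 FPKM in wild type and had the lowest fold change of the Pol III genes and the lowest p of the 31 genes (log2 fold change -0.61, SE 0.20, limma adjusted p = 0.0995). RPC34 read 57.1 and 61.6 FPKM in dbp2null against 89.01 and 80.7 FPKM in wild type (log2 fold change -0.51), also without overlap. RPC82 read 49.8 and 55.99 FPKM in dbp2null against 57.1 and 49.5 FPKM in wild type, a log2 fold change of -0.0090. RPC53 and RPC37 form the TFIIF-like pair of Pol III, which acts with RPC11 in termination. RPC53 read 71.01 and 60.5 FPKM in dbp2null against 73.05 and 57.5 FPKM in wild type and RPC37 63.2 and 68.1 FPKM in dbp2null against 82.1 and 71.4 FPKM in wild type, log2 fold changes of 0.016 and -0.22, and RPC37 did not overlap. RPC11 read 358 and 124 FPKM in dbp2null against 294 and 335 FPKM in wild type (log2 fold change -0.57). Its wild-type values lay between the dbp2null values. The stalk genes RPC25 and RPC17 read 95.9 and 71.2 FPKM in dbp2null against 99.4 and 82.2 FPKM in wild type and 73.9 and 50.4 FPKM in dbp2null against 89.7 and 94.3 FPKM in wild type, log2 fold changes of -0.13 and -0.58. Only the latter was without overlap. The group median was -0.19, a distance of -0.47 from all features. That distance was 0.03 with quantile normalization. With the protein-coding sums made equal the group median was 0.62, a distance of -0.46 from all features.

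The genes for shared subunits had the most negative group medians, and these rested mainly on dbp2null replicate 2, without which they were -0.26 for subunits of all 3 enzymes and -0.35 for the pair of Pol I and Pol III. RPC40 and RPC19, the assembly partners in Pol I and Pol III, read lower without overlap. RPC40 read 257 and 188 FPKM in dbp2null against 391 and 389.9 FPKM in wild type (log2 fold change -0.83, SE 0.42, limma adjusted p = 0.217). RPC19, which ends 439 bases before DBP2 on the same strand, read 293 and 94.3 FPKM in dbp2null against 300.1 and 328 FPKM in wild type (log2 fold change -0.91, SE 0.64, limma adjusted p = 0.348). RPC19 replicate 1 was close to wild type, whereas both RPC40 libraries were well below it. Of the subunits of all 3 enzymes, RPB8 read 616 and 319 FPKM in dbp2null against 988 and 1049 FPKM in wild type (log2 fold change -1.20, SE 0.62, limma adjusted p = 0.223), and both dbp2null libraries were low. RPO26, the gene of the Rpb6 subunit and the single member with an intron, read 336 and 152 FPKM in dbp2null against 405 and 423 FPKM in wild type (log2 fold change -0.87, SE 0.55, limma adjusted p = 0.3). RPB5 read 199 and 122 FPKM in dbp2null against 247 and 231 FPKM in wild type (log2 fold change -0.61, SE 0.41, limma adjusted p = 0.324). In none of the 3 did the genotypes overlap, and 20.7% of all features read lower without overlap. RPB10 read 2380.3 and 279 FPKM in dbp2null against 2282 and 2396 FPKM in wild type (log2 fold change -1.52, SE 1.22, limma adjusted p = 0.4), and RPC10, also called RPB12, 2732 and 637 FPKM in dbp2null against 2655 and 2368 FPKM in wild type (log2 fold change -0.93, SE 1.02, limma adjusted p = 0.522). In both, replicate 1 lay at the wild-type level and replicate 2 far below. The 5 genes had a median of -0.93, a distance of -1.21 from all features, which became 0.17 with quantile normalization. For the pair of genes of Pol I and Pol III these distances were -1.15 and -0.0043. With the protein-coding sums made equal the medians of these groups were -0.10 and -0.05, distances of -1.19 and -1.14 from all features.

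The dbp2null libraries disagreed more on short genes than on long ones. In replicate 1 alone the median difference from the wild-type mean was -0.03 over the 10 genes under 500 bases and -0.303 over the other 21. In replicate 2 alone it was -1.51 and -0.48. Across the 31 genes, log2 length correlated with the difference at r = -0.305 in replicate 1 and at r = 0.73 in replicate 2, as a description over genes that share libraries. Over the 853 protein-coding features under 500 bases the medians were 0.54 in replicate 1 and -0.60 in replicate 2, and over the 824 of at least 2500 bases 0.35 and 0.72. The part of length in the subunit values was not tested. All 31 subunit genes lay below the median fold change of protein-coding features in their own length class. Among the 21 genes of at least 500 bases, 14 did not overlap and were lower, against 20.7% of all tested features of any length. The 14 include all 5 of Pol I, 3 of 5 of Pol II and 3 of 8 of Pol III. A fit over features of that length, chosen after the data were seen, called 4 of the 21, all lower. They were RPC31 (limma adjusted p = 0.0331), RPA190 (0.0373), RPA135 (0.0377) and RPC40 (0.0496). In that fit 9.06% of features were called lower, and most of the features called were higher.

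**Figure D2:**
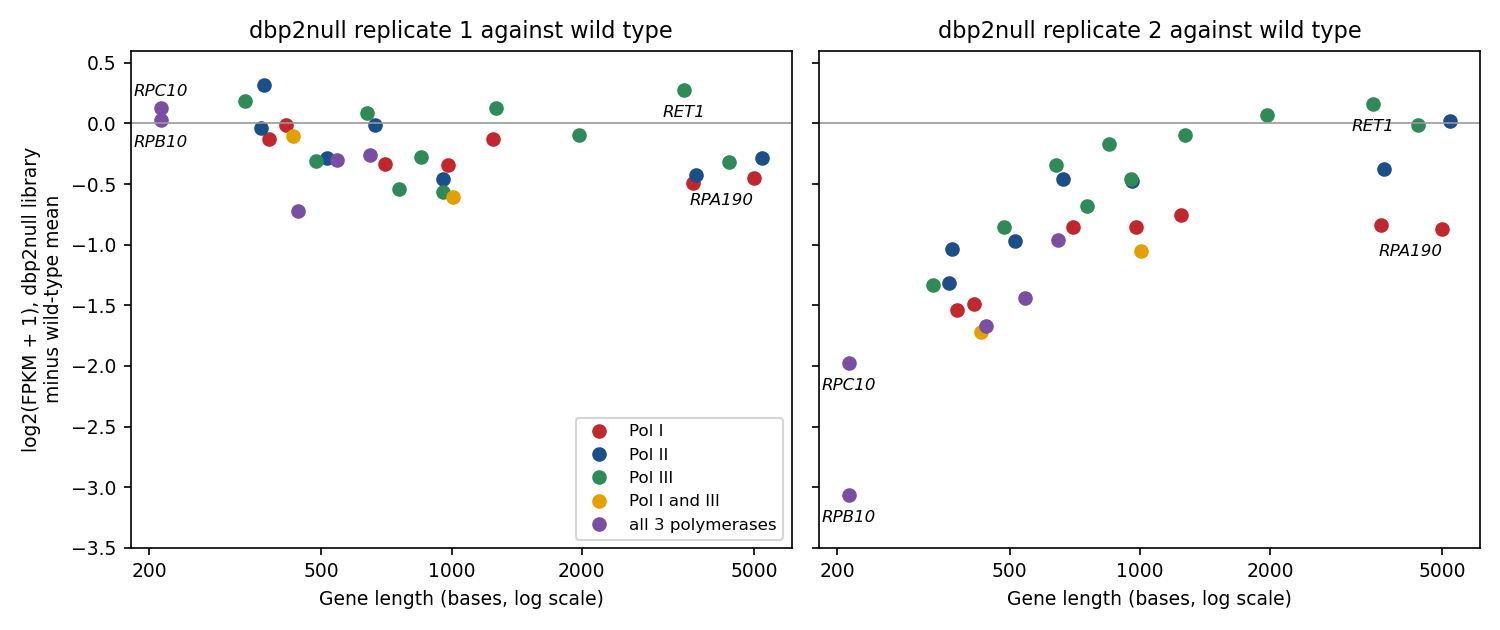
Difference of log2(FPKM + 1) between each dbp2null library and the wild-type mean (vertical) against gene length in bases (log scale, horizontal), one point per subunit gene, coloured by polymerase. In replicate 2 the short genes RPB10 and RPC10 lie at -3.06 and -1.98 and the long genes RPO21 and RPO31 at 0.02 and -0.01, while RPA190 and RPA135 lie at -0.87 and -0.83. In replicate 1 the same short genes lie at 0.03 and 0.12.

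Fold changes also differed with the level of a gene. Protein-coding features with a wild-type mean of at least 200 FPKM had a median log2 fold change of -0.97 (n = 660), those from 100 to 200 FPKM -0.49 (n = 544), those from 50 to 100 FPKM -0.20 (n = 818) and those from 1 to 50 FPKM 0.65 (n = 3882). In dbp2null replicates 1 and 2 alone the medians were -0.34 and -1.55 for features of at least 200 FPKM. For those from 1 to 50 FPKM they were 0.56 and 0.74, so the libraries also disagreed by level. Level and length were not separated. These classes use the wild-type values that also enter the fold change. Read against their own level class, 17 of the 31 subunit genes lay below the class median and 14 above, and the median distance was -0.11. By group it was -0.11 for Pol I, -0.14 for Pol II and -0.16 for Pol III. For the shared subunits it was 0.095 for the pair of Pol I and Pol III (0 of 2 below) and 0.039 for all 3 enzymes (2 of 5 below). The 12 genes of at least 200 FPKM had a median of -0.83, with 2 of 12, RPB10 and RPB8, below their class. The 3 genes under 50 FPKM, RPO21, RPO31 and RET1, had a median of -0.13 and lay at -0.78, -0.82 and -0.43 from the median of their class. By within-library rank among all tested features the median subunit gene stood at percentile 77.9 in both dbp2null libraries and at 79.8 and 79.4 in wild type. RPA190 stood at 68.4 and 66.3 against 75.8 and 74.6, and RPC31 at 50.9 and 47.1 against 67.3 and 66.4. RPB4 stood at 85.2 and 90.2 against 85.5 and 84.9.

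Ratios between genes of one library do not depend on a factor that multiplies the whole library, but quantile normalization alters them. Across 19 ratios compared, 12 did not overlap between genotypes. Several of the ratios share a gene, so they are not independent, and no share over other gene pairs was computed to set beside the 12. With 2 libraries a genotype the exact two-sided permutation test cannot give a p below 0.333, and none of the 19 passes it (adjusted p = 0.528 for each of the 12). RPA190 to RPA135 stood at 0.842 and 0.792 in dbp2null and 0.845 and 0.787 in wild type, and the genotypes overlapped. RPO31 to RPO21, the largest subunits of Pol III and Pol II, stood at 1.05 and 1.04 against 1.07 and 1.07, a log2 difference of -0.03, and did not overlap. RPA190 to RPO21 stood at 1.99 and 1.19 against 2.18 and 2.27. That ratio was lower in both dbp2null libraries, but replicate 1 was much closer to wild type than replicate 2. RET1 to RPB2 stood at 0.876 and 0.777 against 0.548 and 0.519, and RPO31 to RET1 at 0.782 and 1.05 against 1.19 and 1.19. RPA135 to RET1 had the widest difference, 1.76 and 1.51 against 2.89 and 3.20, a log2 difference of -0.896. The gap between genotypes exceeded the spread within each in these RET1 ratios to RPB2 and RPA135. With quantile normalization the log2 fold changes of RET1, RPB2 and RPA135 were 0.021, -0.28 and -0.34, closer together than the 0.22, -0.40 and -0.66 of the deposited values. Among genes near 1000 bases, RPC40 to RPB3, the homologous assembly subunits, stood at 5.41 and 4.01 against 5.85 and 6.07.

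**Figure D3:**
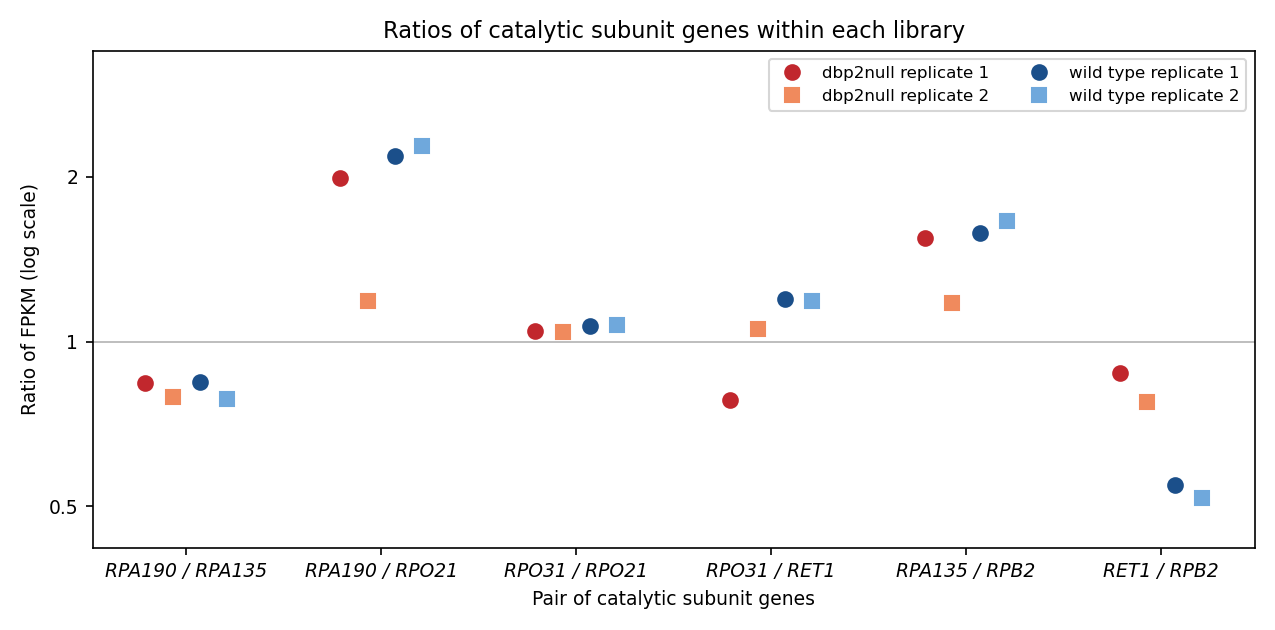
Ratio of FPKM between pairs of genes for the largest or second largest subunits (log scale), one point per library. RPA190 to RPA135 and RPO31 to RPO21 lie at nearly the same value in all 4 libraries, and RET1 to RPB2 lies at 0.876 and 0.777 in dbp2null against 0.548 and 0.519 in wild type.

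The genes of homologous subunits had fold changes that were close in some pairs and apart in others, and none of them passed the test. The proteins, translated from the R64 reading frames, were 34.7% identical over aligned residues for RPA190 and RPO21, 32.8% for RPA190 and RPO31 and 37.4% for RPO21 and RPO31. Their genes had log2 fold changes of -0.66, -0.13 and -0.16. RPA135, RPB2 and RET1 were 33.3% to 41.4% identical in pairs, with fold changes of -0.66, -0.40 and 0.22. The zinc-ribbon subunit genes RPA12, RPB9 and RPC11 (28.6% to 34.0% identical) stood at -0.83, -0.36 and -0.57, and in replicate 1 alone they stood at -0.13, 0.32 and 0.19. The stalk genes RPA43, RPB7 and RPC25 (24.3% to 31.0%) stood at -0.60, -0.62 and -0.13. How reads were assigned to genes is not stated in the labels or processing notes.

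Fold changes of genes with and without a PAC core covered overlapping ranges. The 17 genes with it had a median log2 fold change of -0.51 and the 14 without it -0.62, with ranges from -0.91 to 0.22 and from -1.52 to -0.13. The genes without it are shorter (median 463.5 against 1008 bases). In replicate 1 alone the medians were -0.31 and -0.19. RPA190 and RPA135, with the overlapping cores printed above, stood at -0.66 and -0.66, and RET1, which has both elements, at 0.22.

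Genes of factors that work with the polymerases mostly had positive fold changes (38 of 58), as did 4225 of the 6781 features tested. Of 58 such genes in 5 lists, 0 were called by limma, against 1.19% of all features, and 12 had an unadjusted p below 0.05, against 37.9%. In 33 genes the values read higher without overlap, against 49.8% of all features, in 9 they read lower, against 20.7%, and in 16 they overlapped. All 9 Pol III factors read higher without overlap, as did 49.8% of all features, with a median of 0.55. They encode subunits of TFIIIC, Brf1 and Bdp1 of TFIIIB and the repressor Maf1. BDP1 of TFIIIB read 27.3 and 41.8 FPKM in dbp2null against 24.5 and 15.6 FPKM in wild type (log2 fold change 0.76, SE 0.32, limma adjusted p = 0.161). In wild type the 9 genes stood between 14.4 and 28.0 FPKM, and against protein-coding features below 50 FPKM 5 of 9 were below the class median. TFC7 of TFIIIC had the lowest fold change of the list and read 28.9 and 32.5 FPKM in dbp2null against 28.00 and 23.00 FPKM in wild type (log2 fold change 0.26, SE 0.19, limma adjusted p = 0.354). Pol I factors had a median of 0.33 (5 of 9 higher and 1 lower without overlap). RRN5 of the upstream activating factor read 27.9 and 27.4 FPKM in dbp2null against 17.7 and 14.4 FPKM in wild type (log2 fold change 0.75, SE 0.18, limma adjusted p = 0.0694) and HMO1, a high-mobility-group protein of rDNA, 187 and 96.3 FPKM in dbp2null against 250.03 and 227 FPKM in wild type (log2 fold change -0.82, SE 0.45, limma adjusted p = 0.25).

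The Pol II general factors were spread around a median of -0.0055 (7 of 19 higher and 3 lower without overlap, against 49.8% and 20.7% of all features). TOA1 and TOA2 encode the 2 subunits of TFIIA and lay at opposite ends. TOA1 read 31.8 and 49.2 FPKM in dbp2null against 23.7 and 19.5 FPKM in wild type (log2 fold change 0.85, SE 0.27, limma adjusted p = 0.0961) and TOA2 225 and 76.1 FPKM in dbp2null against 331 and 273 FPKM in wild type (log2 fold change -1.19, SE 0.62, limma adjusted p = 0.227). TOA2, 369 bases long, differed from the wild-type mean by -0.41 in replicate 1 alone and by -1.97 in replicate 2. Protein-coding features in the level classes of TOA1 and TOA2 had median log2 fold changes of 0.65 and -0.97. Elongation and CTD factors had a median of -0.10 (6 of 13 higher and 5 lower without overlap, against the same shares). CTK3, for a subunit of the kinase complex that phosphorylates the tail of Rpo21, had the highest fold change of the 58 genes and read 86.6 and 90.4 FPKM in dbp2null against 31.3 and 26.8 FPKM in wild type (log2 fold change 1.58, SE 0.20, limma adjusted p = 0.0537). SPT6, for a histone chaperone of elongation, read 28.6 and 29.4 FPKM in dbp2null against 50.9 and 45.5 FPKM in wild type (log2 fold change -0.71, SE 0.18, limma adjusted p = 0.0703). Assembly and import factors had a median of 0.22 (6 of 8 higher and 0 lower without overlap, against the same shares), led by IWR1, which brings Pol II into the nucleus, at 35.8 and 52.98 FPKM in dbp2null against 28.8 and 23.2 FPKM in wild type (log2 fold change 0.73, SE 0.26, limma adjusted p = 0.121). RTP1, which takes part in Pol II import, had the lowest fold change among the 6 and read 21.2 and 23.3 FPKM in dbp2null against 20.9 and 18.2 FPKM in wild type (log2 fold change 0.18, SE 0.18, limma adjusted p = 0.484). Against all features, whose median was 0.28, the 58 genes lay at a median of 0.26 and the 31 subunit genes at -0.59. In the wild-type libraries the median factor gene stood at 32.9 and 26.9 FPKM and the median subunit gene at 137 and 128 FPKM. Read against the level class, the median distance was -0.23 for Pol I factors, -0.23 for Pol II general factors and -0.30 for elongation and CTD factors. It was -0.11 for Pol III factors, 0.24 for assembly and import factors and -0.11 for the 31 subunit genes.

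**Figure D4:**
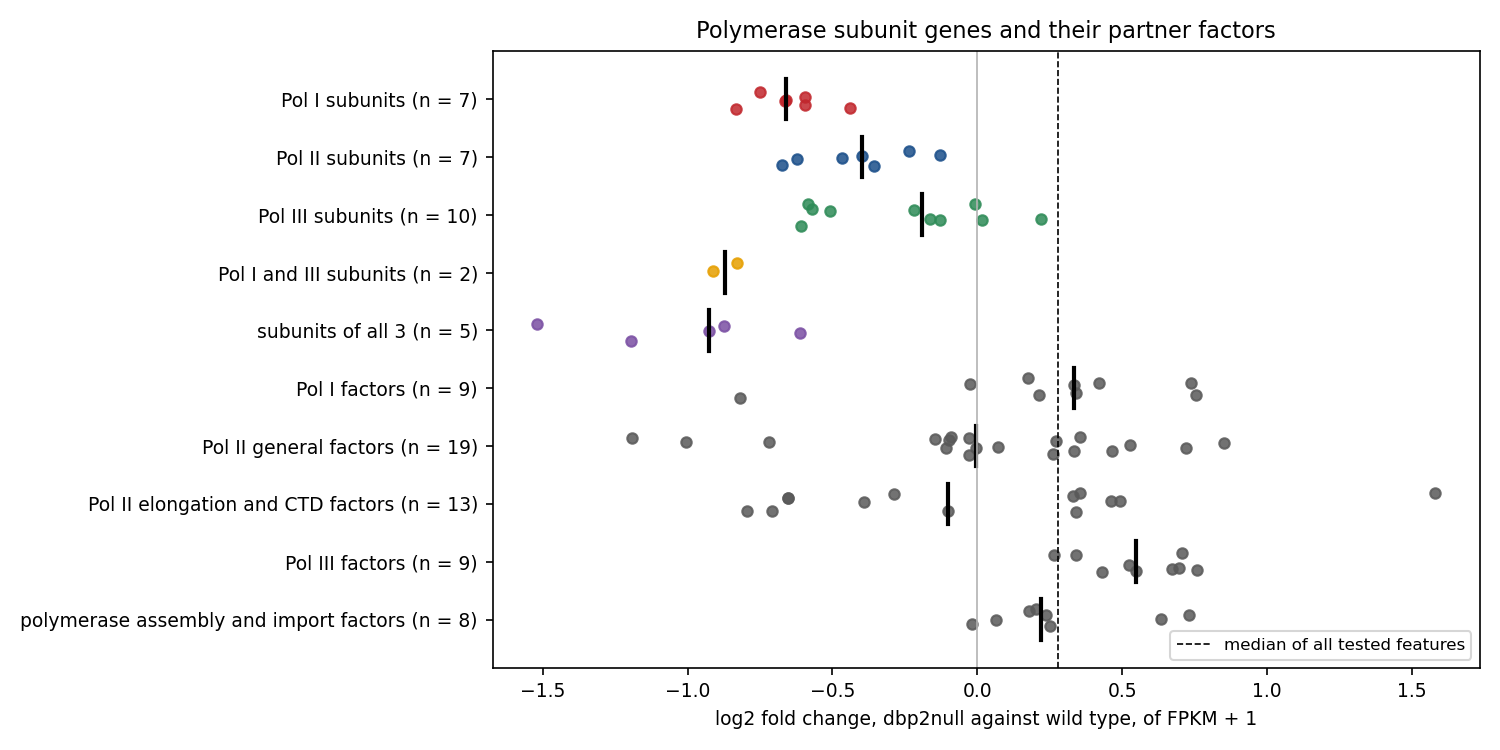
Log2 fold change of FPKM + 1, dbp2null against wild type, for each subunit gene by polymerase and for each factor gene by list. Points are genes, shifted at random in the vertical direction, black bars are medians and the dashed line is the median of all tested features, 0.28. Medians run from -0.93 for subunits of all 3 polymerases to 0.55 for Pol III factors. With quantile normalization the subunit medians lay between -0.28 and 0.15.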

How the data were processed

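The authors deposited one table with an FPKM value per feature and library, in 4 columns. The submitters' processing notes list edgeR, Cufflinks, TopHat and CASAVA with the sacCer3 build and give no order, role or version. The deposited FPKM values hold no counts. Of 500 low values per library, 8.4% to 11.8% came within 0.05 of a whole number of reads after scaling by length, with the smallest taken as 1 read, so reads were not recovered and depth is unknown. In all, 3 blank rows were left out, and 6079 of 7126 features were matched by name to RefSeq R64.

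FPKM was tested on the log2(FPKM + 1) scale with limma 3.58.1 in R 4.3.3 (mean-variance trend, no covariate, two-sided) over features averaging 1 FPKM or more. The added 1 understates changes of low genes. The fit was tested on simulated data with independent noise of the same size in every library. That setting leaves out the wider spread between the dbp2null libraries. Groups and replicate numbers are from the labels. All subunit genes are given, with full statistics for the largest, second largest and shared subunits and each group's highest and lowest fold change. Factor genes are named by the highest and lowest fold change of each list among those without overlap, with SPT15 added. Members and lists were chosen with earlier results of these data known. Promoters and proteins come from RefSeq R64 (the sacCer3 sequence), with Biopython 1.88 (BLOSUM62, gap penalties 11 and 1). Alternatives were other pseudocounts (0.1 and 5), filters (none, 10 FPKM), scalings, no trend, the replicate block and each library left out.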

Additional observations from a re-analysis of the deposited data

How the results depend on the processing

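Read depth is unknown and each genotype has 2 libraries, so the tests rest on the spread that limma pools across features, and leaving out one library assumes that its lone partner varies like the other genotype. The count of features called, 81, moved with a pseudocount of 0.1 (8) and 5 (425), a filter at an average of 10 FPKM (13), quantile normalization (5), median centring (13), no trend (41) and the replicate block (16), and with each library left out it ranged from 0 (wild-type replicate 1) to 2512 (dbp2null replicate 1), with 6 without wild-type replicate 2. The same replicate numbers gave no pairing by the labels. Deviations of same-numbered libraries from their group means correlated with r = -0.115 over features, and a block with crossed numbers, chosen after the data were seen, called 2667 features, 0 subunit genes and 18 factor genes. The fit over features of at least 500 bases, also chosen after the data were seen, called 2333 of 5110 features, 4 subunit genes and 15 factor genes. Under the planned settings with all libraries the count of subunit genes called stayed at 0, the block included, and with a library left out it ranged from 0 to 18. The count of factor genes called, 0 in the report, was 1 with a pseudocount of 5 and ranged from 0 to 8 with a library left out. The median subunit gene relative to all features, -0.87 in the report, was 0.00036 with quantile normalization and ranged from -1.08 to -0.65 with a library left out. The cause was not tested.

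Single subunit genes turned sign mostly where the values were small or the scale moved. With median centring the log2 fold change of RPC53 was -0.32 and that of RET1 -0.12. With quantile normalization it was 0.011 for RPB5, 0.011 for RPC37, 0.015 for RPC82, 0.063 for RPC11, 0.15 for RPB9, 0.15 for RPB10, 0.16 for RPC25, 0.24 for RPB11, 0.30 for RPC40, 0.42 for RPB8, 0.57 for RPB4 and 0.72 for RPC10. With the protein-coding sums made equal, which raised the median of all features to 1.08, it was 0.063 for RPA14, 0.14 for RPB11, 0.15 for RPA135, 0.15 for RPA190, 0.19 for RPB7, 0.20 for RPC31, 0.21 for RPB5, 0.22 for RPA43, 0.22 for RPA34, 0.23 for RPC17, 0.25 for RPC11, 0.31 for RPC34, 0.34 for RPB3, 0.38 for RPA49, 0.41 for RPB2, 0.46 for RPB9, 0.58 for RPB4, 0.59 for RPC37, 0.65 for RPO31, 0.68 for RPO21, 0.69 for RPC25 and 0.80 for RPC82. With each library left out in turn it ranged from -3.06 to 0.026 for RPB10, from -1.03 to 0.32 for RPB9, from -1.98 to 0.12 for RPC10, from -1.33 to 0.19 for RPC11, from -0.34 to 0.084 for RPC25, from -0.15 to 0.19 for RPC53, from -0.11 to 0.092 for RPC82 and from -0.28 to 0.024 for RPO21. None of these reversed values passed the test.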

Other observations

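The split of the summed subunit FPKM among the polymerases differed in 1 library. The 5 genes for subunits of all 3 enzymes took 64.0% of the sum over the 31 genes in dbp2null replicate 1 and 62.1% and 63.0% in wild type, but 42.2% in dbp2null replicate 2. Over the 21 genes of at least 500 bases, Pol I genes took 23.9% and 22.9% in dbp2null and 25.01% and 24.0% in wild type. Pol III genes took 20.6% and 26.9% against 19.5% and 17.9%, and RPC40 took 11.4% in each dbp2null library against 13.7% and 14.6%. These shares use the deposited values as they stand and were not tested.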
